A study of Schizosaccharomyces pombe with 6 samples.

Results

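Peaks of Hap2 and Arp5 were examined over 10 genes of the fission yeast *S. pombe* whose products, actin among them, belong to the chromatin remodeler Ino80C. The genes are *act1*, *arp5*, *arp8*, *alp5*, *rvb1*, *rvb2*, *ino80*, *hap2*, *iec1* and *nht1*. They were taken by symbol from the ASM294v3 annotation, in which all 10 were found among 5113 protein-coding genes on chromosomes I, II and III. ChIP-seq had been performed on cells of a strain with the genotype Hap2-GFP Arp5-3HA, grown in rich YES medium. The antibodies were anti-GFP for Hap2-GFP and anti-HA for Arp5-3HA. Each protein had 2 replicates, and every sample carried both tags. The labels also name 2 inputs from this strain, which were not analysed here, and no untagged strain was analysed. They do not say whether the replicates were separate cultures, so the spread between replicates may be technical. *hap2* and *arp5* are themselves the tagged genes. At these loci the strain differs from the reference by the DNA of the tag, whose exact site is not given in the sources used here.

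Ino80C is a conserved remodeler that slides and evicts nucleosomes with energy from ATP, and in budding yeast and in mammals it has been tied to the exchange of the histone variant H2A.Z and to transcription, replication and repair. The Ino80 protein is its motor and its scaffold. Actin, together with the actin-related proteins Alp5 (the fission yeast Arp4) and Arp8, forms a module on the motor protein, whereas Arp5 belongs to a module that contacts the nucleosome and is held by a ring of the AAA ATPases Rvb1 and Rvb2. Outside the nucleus actin forms the patches, cables and cytokinetic ring of the yeast cell, and *act1* is therefore a highly expressed housekeeping gene as well as a subunit gene.

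Each ChIP sample has its own list of peaks. On the 3 chromosomes the lists hold 3758 and 4259 peaks for Hap2-GFP replicates 1 and 2 and 4206 and 4277 for Arp5-3HA replicates 1 and 2, and they cover 10.9%, 12%, 11.4% and 11.8% of the sequence. Peaks were ranked within a list by their deposited score, and rank 1 is the highest. The depth of the samples is unknown from these lists, so heights were not compared between samples and no intervals are given. With 2 lists a protein no test was made across lists.

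The members fell into 3 kinds. *act1* and *arp5* lay under long, high-ranking peaks of both proteins in all 4 lists. *arp8* and *hap2* had a peak at their 3′ ends in all 4 lists, which outscored 82.4% to 96% of the peaks in the list at *arp8* and 69% to 93.1% at *hap2*. The other 6 genes had short peaks, many of them low in rank, or none. The map of peaks along each gene shows these kinds side by side.

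**Figure D1:**
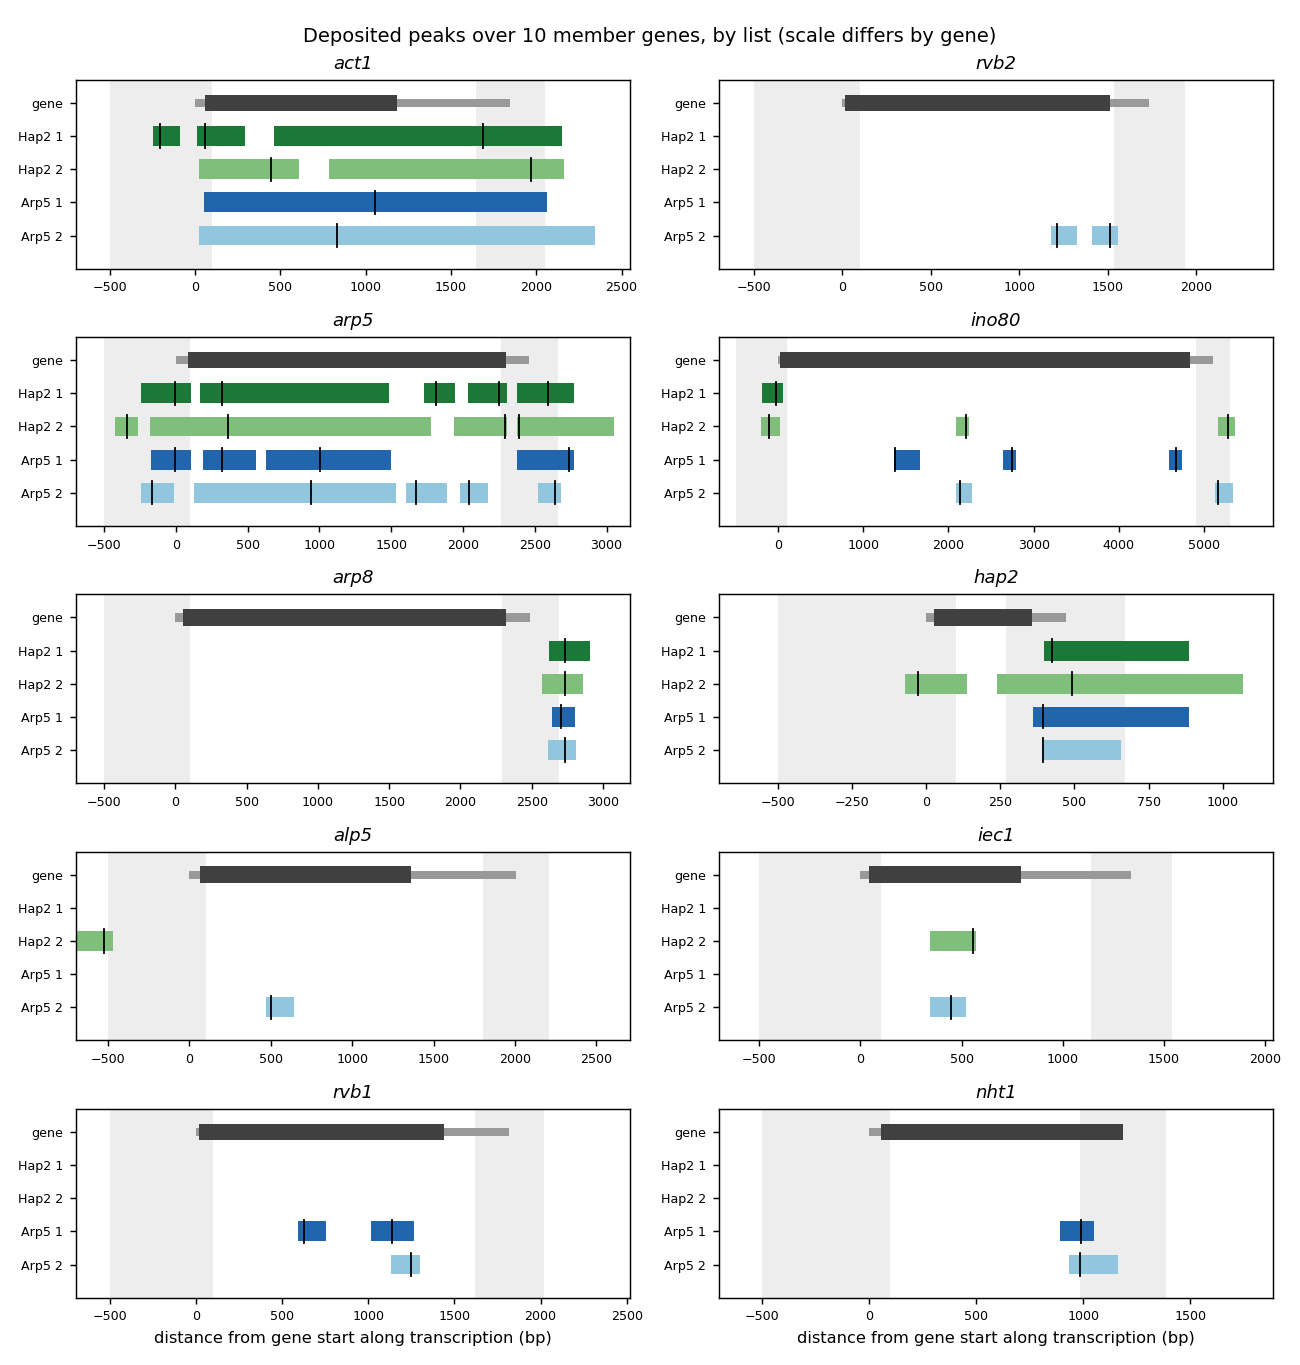
Peaks of the 4 lists along the 10 members. The horizontal axis is the distance in bp from the gene start in the direction of transcription, the thin bar is the annotated gene and the thick bar spans its coding sequence from start to stop codon. Coloured bars are peaks of Hap2-GFP (green) and Arp5-3HA (blue) replicates 1 and 2, black ticks are their summits, and grey bands mark the promoter and 3′ end windows. *act1* and *arp5* are covered over most of their length in each list, and *arp8* has no peak over the gene itself.

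Peaks were assigned to 3 windows of each gene. The promoter window took in the 500 bp before the annotated gene start and the first 100 bp of the gene, the 3′ end window covered 200 bp on either side of the annotated gene end, and the body lay between them. A gene was counted where a peak overlapped the window by at least 1 bp in both replicates of a protein. For Hap2 the promoter was counted in 3 of the 10 members (*act1*, *arp5* and *ino80*), against 18.6% of all coding genes. The Hap2 body count was 2 (*act1* and *arp5*), against 26.8% of coding genes, and the Hap2 3′ end count was 4 (*act1*, *arp5*, *arp8* and *hap2*), against 16.7%. For Arp5 the promoter was counted in 2 members (*act1* and *arp5*), against 5.73% of coding genes. The Arp5 body count was 5 (*act1*, *arp5*, *rvb1*, *ino80* and *nht1*), against 36.6%, and the Arp5 3′ end count was 5 (*act1*, *arp5*, *arp8*, *hap2* and *nht1*), against 16.1%. At promoters and 3′ ends the share of members was thus above that of coding genes for both proteins. Over bodies it was above it for Arp5 and, by less than a single gene, below it for Hap2. The promoter counts depended on the setting. Where only peaks with their summit in the window counted, they were 2 for Hap2 and 1 for Arp5. With peaks at or above the median score of their list they were again 2 and 1. The shares of coding genes were not recomputed under these settings. The 3′ end counts include *arp8*, whose peak lies past the gene over a tRNA gene, and *hap2*, whose peak also covers the convergent gene *sif2*. Over any of the windows, 5 members had a Hap2 peak in both replicates, against 40.8% of coding genes, and 7 had an Arp5 peak, against 43.2%. With 10 genes these shares move in steps of 10 percentage points, and *act1* and *arp5* enter every one of them.

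**Figure D2:**
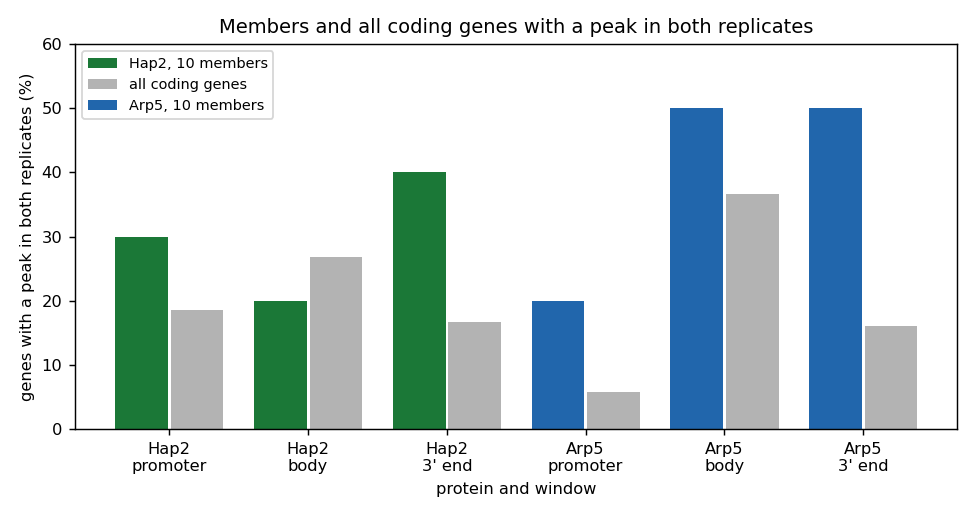
Share of the 10 members (coloured bars) and of all 5113 coding genes (grey bars) with a peak in both replicates, in percent, by protein and window. No error bars are drawn, since each share is a count over 1 fixed set of genes. Members stand above coding genes at the promoter and the 3′ end for both proteins. Over the body they stand above them for Arp5 and, by less than a single gene, below them for Hap2.

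The counts differed between replicates of a protein. Hap2-GFP replicate 1 had a peak over the promoter of 3 members (24.1% of coding genes), the body of 2 (35.8%) and the 3′ end of 4 (23.2%). Hap2-GFP replicate 2 had more, with promoter, body and 3′ end counts of 5 (26.4% of coding genes), 5 (39.8%) and 5 (24.3%). Arp5-3HA replicate 1 had peaks over the promoter of 2 members (9.72%), the body of 5 (47%) and the 3′ end of 5 (23.1%). In Arp5-3HA replicate 2 these numbers were 2 (9.84%), 8 (48.2%) and 7 (23.9%). Replicate 2 thus added members for each protein, and the genes it added were mainly those with short, low-ranking peaks. *rvb1*, *rvb2* and *nht1* had no Hap2 peak over any window in either replicate. The 7 members with one in at least 1 replicate compare with 62.4% of coding genes. For Arp5 all 10 members had a peak over some window in at least 1 replicate, against 65.5% of coding genes.

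*act1* encodes actin and lies on the minus strand of chromosome II, 1475485 to 1477333, as a single exon with a coding sequence from 1476149 to 1477276. Peaks covered 90.1% and 89.6% of the gene in the Hap2 replicates and 97.1% and 98.8% in the Arp5 replicates. It was one of the most fully covered genes of the genome, with rank 61 of 5113 coding genes by the mean of the Hap2 replicates and rank 21 by that of Arp5. Replicates differed by 0.541 percentage points for Hap2 and 1.62 for Arp5.

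The peaks over *act1* were long. In Arp5-3HA replicate 1 a single peak of 2010 bp ran from 1475271 to 1477280 and had rank 286 of 4206, with its summit 1057 bp into the gene. In Arp5-3HA replicate 2 a single peak of 2320 bp ran from 1474991 to 1477310, scored above 95% of the 4277 peaks of the list and had its summit 832 bp into the gene. Both Arp5 summits were thus inside the coding sequence. Hap2 peaks were split over the gene. In Hap2-GFP replicate 1 a peak of 1690 bp over the downstream part (1475181 to 1476870, rank 484 of 3758) had its summit 1687 bp from the gene start, past the stop codon, and a second peak of 280 bp lay at the start (1477041 to 1477320, rank 2305). Hap2-GFP replicate 2 had a downstream peak of 1380 bp (1475171 to 1476550, rank 477 of 4259), with its summit 1967 bp from the gene start and 119 bp past the gene end, and an upstream one of 590 bp (1476721 to 1477310, rank 1685). The higher-ranking Hap2 peak was therefore the one over the 3′ part of the gene in each replicate. In the promoter, the 2 proteins and the replicates differed in how far the peaks reached. Within the promoter window, no Arp5 peak and no peak of Hap2-GFP replicate 2 lay upstream of the annotated start, and the Arp5 promoter count at *act1* rests on 47 and 77 bp inside the first 100 bp of the gene. Only Hap2-GFP replicate 1 had an upstream peak, of 160 bp (1477421 to 1477580, rank 883), with its summit 203 bp before the start. Peaks at the other end reached the convergent gene *mei4*, which encodes a meiotic forkhead transcription factor and ends 199 bp away, by 105, 115, 15 and 295 bp in the lists in the order Hap2-GFP replicates 1 and 2 and Arp5-3HA replicates 1 and 2.

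*act1* was a locus outside the centromeres in ChIP-qPCR of Hap2-GFP, and the primers listed for it are shown to place that assay in the peaks. They match the ASM294v3 sequence in the coding part of the gene, 390 to 523 bp from the gene start (chromosome II, 1476810 to 1476943). All letters are in lower case, since no base is singled out.
WB9-F: cccaaatccaaccgtgagaagatg
WB10-R: ccagagtccaagacgataccagtg
The amplicon of 134 bp was covered whole by 1 peak in Hap2-GFP replicate 2 and in both Arp5 lists. In Hap2-GFP replicate 1, 61 of the 134 bp were covered, since the amplicon reaches into the gap between the 2 peaks of that list. The upstream peak of Hap2-GFP replicate 1 is shown because it is the only sequence in the 500 bp before the start of *act1* under a peak in any list. It is given on the strand of the gene (II:1477421-1477580, minus strand, ASM294v3).
*act1* upstream peak: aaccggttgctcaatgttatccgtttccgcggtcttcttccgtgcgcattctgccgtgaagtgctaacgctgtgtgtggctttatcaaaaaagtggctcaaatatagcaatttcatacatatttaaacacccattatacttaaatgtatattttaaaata
It holds no match to TATAAA, the letters of a TATA box, searched on both strands. Of 5112 coding genes, 32.7% hold a match at the same distance from their start, 88 to 247 bp upstream.

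Genes with a peak pattern like that of *act1* were sought over 12 values a gene, the share of the promoter, body and 3′ end windows covered in each of the 4 lists. The 5 nearest by Euclidean distance were *tpi1* (triosephosphate isomerase, a distance of 18.8 percentage points), *rpl4302* (a protein of the large ribosomal subunit, 25.4), *tef3* (the translation elongation factor eEF3, 26.4), *sks2* (a ribosome-associated chaperone, 26.4) and *ecm33* (a cell surface protein with leucine-rich repeats, 26.5). None of the 5 is a subunit gene of Ino80C. Their peaks covered 82.9% to 100% of the gene in the 4 lists.

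*arp5* encodes the Ino80C-specific actin-like protein Arp5, one of the 2 tagged proteins, and lies on the plus strand of chromosome II, 2512585 to 2515047. Peaks covered 81.3% and 90.7% of it in the Hap2 replicates and 58.2% and 76.7% in the Arp5 replicates. By the mean of the replicates it ranked 79 of 5113 coding genes for Hap2 and 223 for Arp5. Next to *act1* it was the most covered member for each protein by that mean. The replicates differed by 9.34 percentage points for Hap2 and 18.6 for Arp5, more than at *act1*.

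The lists split *arp5* into several peaks, with 5, 4, 4 and 5 over its windows in the order of lists given above. Over the body the longest was 1320 bp in Hap2-GFP replicate 1 (2512751 to 2514070, rank 390), 1960 bp in Hap2-GFP replicate 2 (2512401 to 2514360, rank 256) and 1410 bp in Arp5-3HA replicate 2 (2512711 to 2514120, rank 132). In Arp5-3HA replicate 1 the same stretch held 2 peaks, of 370 bp (2512771 to 2513140, rank 264) and 870 bp (2513211 to 2514080, rank 604). All 4 lists thus had peaks from about the start codon to past the middle of the coding sequence. At the promoter, Hap2-GFP replicate 1 and Arp5-3HA replicate 1 had peaks with the same summit, 9 bp before the gene start, at ranks 762 and 2690. Hap2-GFP replicate 2 had an upstream peak of 160 bp at rank 3024 beside the long peak, and Arp5-3HA replicate 2 had one of 230 bp that ended before the gene start, at rank 3661. The highest-ranking peak over *arp5* in Hap2-GFP replicate 2 was a different one, of 370 bp at rank 112 (2514521 to 2514890), which held the end of the coding sequence.

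Around the *arp5* stop codon the edges of the peaks fell close together. The last 30 coding bases are shown to fix the position, with the stop codon in capitals (II:2514858-2514887, plus strand, ASM294v3).
*arp5* end of coding sequence: gagcattctttaggaaacataaattctTAA
In both Hap2 lists a peak ended at 2514890, which is 3 bp past the stop codon, and the next began at 2514961, 74 bp past it, after a gap of 70 bp. A peak of Arp5-3HA replicate 1 also began at 2514961, but the one before it ended at 2514080, 807 bp before the end of the stop codon. In Arp5-3HA replicate 2 the gap was 350 bp and reached from 127 bp before the end of the stop codon to 224 bp past it. None of the 4 lists thus had a peak over the 70 bp from 2514891 to 2514960. Peak boundaries lie on a grid of 10 bp, so equal positions in several lists are less exact than they look. A stretch with 2 or more peak edges within 100 bp of the stop codon in both Hap2 lists was found in 5 of 5113 coding genes (0.0978%), a measure chosen after the *arp5* values were seen. The others were *rps23*, *fib1*, SPBC660.17C and SPCC63.13, none of which is tagged in this strain. The peaks past the gap also reached the next gene on the same strand, *grp2*, which encodes a Golgi protein and begins 200 bp downstream, and an antisense noncoding RNA, SPNCRNA.1523. Of *grp2*, 36.6%, 55.6%, 49.7% and 34.4% was covered. The part of the tag's DNA in the peaks over *arp5* was not tested.

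*hap2* encodes the small subunit Hap2, the other tagged protein, and lies on the minus strand of chromosome III, 660740 to 661209. It is 470 bp long, and 3.11% of coding genes are shorter. Each list had a peak over its 3′ end. It had rank 484 and a length of 490 bp in Hap2-GFP replicate 1 (660321 to 660810), and rank 1238 and 830 bp in replicate 2 (660141 to 660970). In Arp5-3HA replicate 1 it had rank 310 and 530 bp (660321 to 660850), and in replicate 2 rank 278 and 270 bp (660551 to 660820). The summits lay 65, 135, 35 and 35 bp past the stop codon. Upstream, only Hap2-GFP replicate 2 had a further peak, of 210 bp at rank 3510, with its summit 27 bp before the gene start.

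The last coding bases of *hap2* are shown for the same reason as those of *arp5*, with the stop codon in capitals (III:660851-660880, minus strand, ASM294v3).
*hap2* end of coding sequence: aataaagaaaaggaagctggtgagacaTAA
In 3 of the 4 lists the peak began at the stop codon or just past it. Its edge lay 41 bp past the stop codon in Hap2-GFP replicate 1, 1 bp past it in Arp5-3HA replicate 1 and 31 bp past it in Arp5-3HA replicate 2. In Hap2-GFP replicate 2 the edge lay 119 bp before the end of the stop codon, inside the gene. A peak edge within 100 bp of the stop codon in at least 3 lists was found at *arp5* and *hap2* and at no other member, against 354 of 5113 coding genes (6.92%). This measure too was chosen after the values were seen. The share of the gene covered was 15.1% and 78.7% in the Hap2 replicates and 23.6% and 17.2% in the Arp5 replicates. Hap2-GFP replicate 2 stood apart, and the replicates of Hap2 differed by 63.6 percentage points, more than at any other member. The convergent gene *sif2*, which encodes an interactor of the spindle pole body protein Sad1, ends 25 bp away, and the 3′ peaks overlapped it by 394, 574, 394 and 164 bp. Peaks at this end therefore cannot be assigned to *hap2* or *sif2* from the lists, and the part of the tag's DNA in them was not tested.

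**Figure D3:**
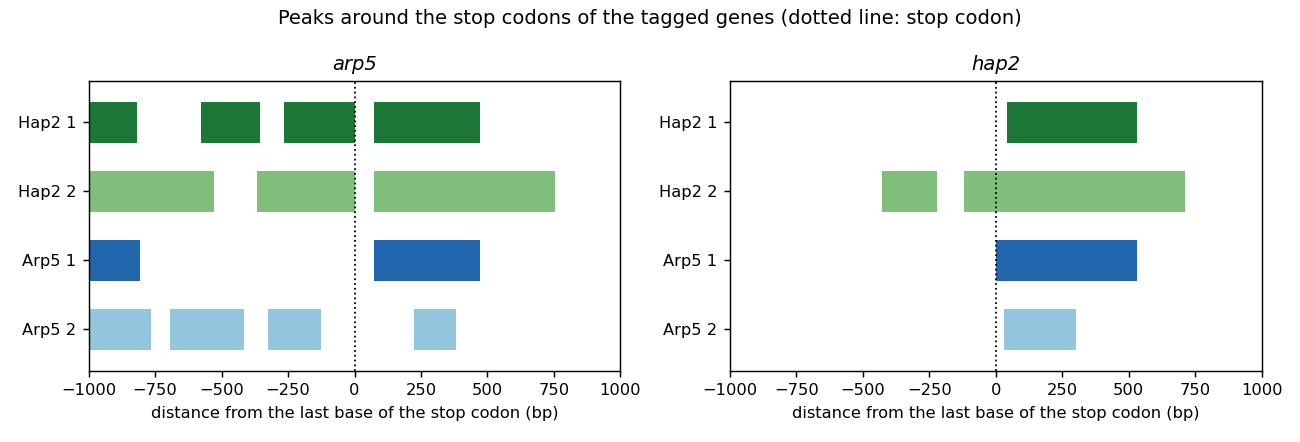
Peaks around the stop codons of the tagged genes *arp5* and *hap2*. The horizontal axis is the distance in bp from the last base of the stop codon (dotted line) in the direction of transcription, and each bar is a peak of Hap2-GFP (green) or Arp5-3HA (blue) replicate 1 or 2. At *arp5* the peaks of both Hap2 lists break from 3 to 74 bp past the stop codon, and at *hap2* the peaks of 3 lists begin 1 to 41 bp past it.

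*arp8* encodes another Ino80C-specific actin-related protein, which in budding yeast forms a module with actin and Arp4 that binds linker DNA. It lies on the minus strand of chromosome I, 1704815 to 1707303. No list had a peak over any base of this gene, and the covered share was 0 in all 4. The counts at its 3′ end came from 1 narrow peak a list just past the gene. This peak was 290 bp long at rank 175 in Hap2-GFP replicate 1 and 290 bp at rank 165 in replicate 2. For Arp5 it was 160 bp at rank 673 in replicate 1 and 200 bp at rank 169 in replicate 2. The summits lay 249, 249, 219 and 249 bp past the gene end, so that none was inside the 3′ end window itself.

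Under these peaks lies a lysine tRNA gene, SPATRNALYS.01, on the opposite strand (I:1704582-1704664, plus strand, ASM294v3). The peak covered all 83 bp of it in 3 lists and 79 bp in Arp5-3HA replicate 1. Its sequence is shown because it is what the highest-ranking peaks near *arp8* cover, with the letters that match GTTCGANNC in capitals, the B box by which TFIIIC binds tRNA genes.
SPATRNALYS.01: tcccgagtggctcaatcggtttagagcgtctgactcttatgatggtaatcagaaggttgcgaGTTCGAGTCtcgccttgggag
Of 171 tRNA genes on the 3 chromosomes, 76.6% hold a match to this motif on their own strand. Of 5112 windows of the same length centred on the ends of coding genes, 0.156% hold one on either strand. The sequence of SPATRNALYS.01 occurs once in the genome. Most tRNA genes lay under peaks, 167, 165, 139 and 148 of 171 in the 4 lists, whereas a tRNA gene stands in the 3′ end window of 18 of 5113 coding genes (0.352%). Without peaks that overlap a tRNA gene, a setting chosen with the data in view, *arp8* had no peak over any window, and the members with a peak over any window in both replicates were 4 for Hap2, against 39.6% of coding genes, and 6 for Arp5, against 42.4%. Further downstream, beyond the tRNA gene, no base of *swi6* was covered in any list.

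*alp5* encodes the actin-like protein Arp4, which Ino80C shares with the Swr1 remodeler and the NuA4 acetyltransferase. It lies on the plus strand of chromosome II, 2012999 to 2015005. Neither replicate 1 list had a peak over its windows. In Arp5-3HA replicate 2 a peak of 170 bp lay in the coding sequence at rank 3894 of 4277, and it covered 8.47% of the gene. In Hap2-GFP replicate 2 a peak of 270 bp at rank 1991 of 4259 had 32 bp in the promoter window, with its summit 523 bp before the gene start, over the noncoding RNA gene SPNCRNA.5450. The 4 genes of actin and actin-related proteins thus ran from nearly full cover at *act1* to no cover or a single low-ranking peak at *arp8* and *alp5*.

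**Figure D4:**
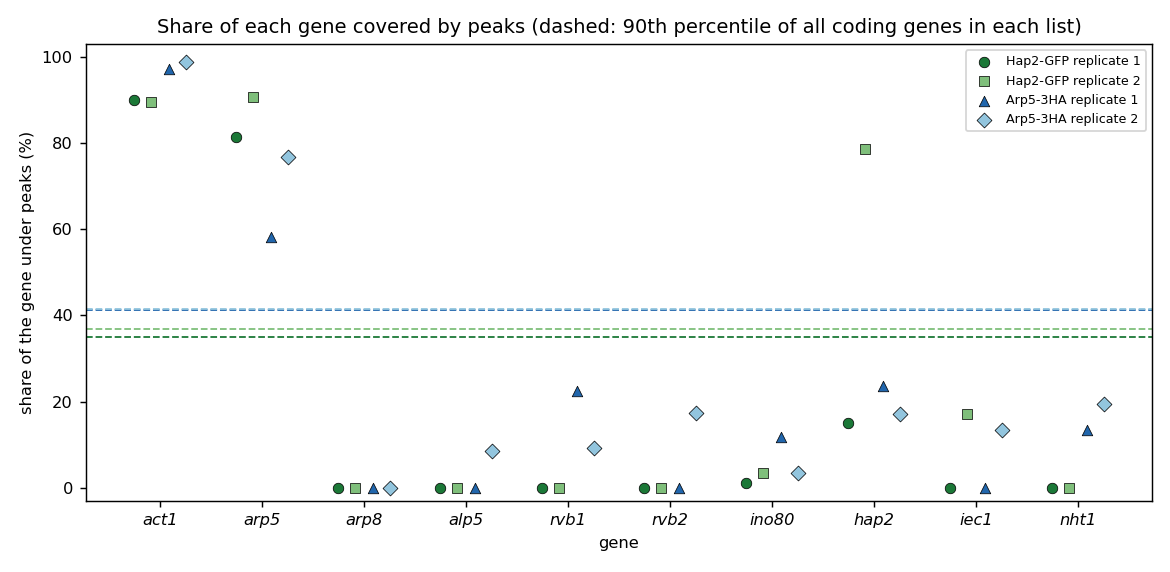
Share of each member, from annotated gene start to gene end, that lay under peaks, in percent. Each point is 1 list, and the dashed lines mark the 90th percentile of all 5113 coding genes in each list (35.1%, 36.8%, 41.2% and 41.6%). *act1* and *arp5* lie above these lines in all 4 lists, *hap2* in Hap2-GFP replicate 2 alone, and the other 7 members in none.

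*rvb1* and *rvb2* encode the AAA ATPases that form the ring of the complex and also serve Swr1. Neither gene had a Hap2 peak in any window. The nearest Hap2 peaks in replicates 1 and 2 lay 3356 and 787 bp from the annotated limits of *rvb1* (chromosome I, 4924247 to 4926065). For *rvb2* (chromosome II, 1523992 to 1525726) these distances were 4585 and 852 bp. Arp5 peaks over these genes were short and low in rank. At *rvb1*, Arp5-3HA replicate 1 had a peak of 160 bp at rank 4190 of 4206 and one of 250 bp at rank 2690 (4925261 to 4925510), and replicate 2 had one of 170 bp at rank 4198 of 4277 (4925381 to 4925550), which overlapped the latter. At *rvb2*, only Arp5-3HA replicate 2 had peaks, both of 150 bp, at ranks 3894 and 4264. Among peaks at or above the median score of their list, *rvb1* was no longer counted over the body for Arp5.

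*ino80* encodes the SNF2 family ATPase of the complex. It is the longest member, 5113 bp on the plus strand of chromosome I (5403218 to 5408330), and longer than 97.5% of coding genes. Hap2 peaks lay over its start in both replicates. The peak was 240 bp long at rank 2122 of 3758 in replicate 1 (5403031 to 5403270), with its summit 32 bp before the gene start. In replicate 2 it was 220 bp long at rank 901 of 4259 (5403021 to 5403240), with its summit 112 bp before the start. It was the only member besides *act1* and *arp5* with a Hap2 promoter peak in both replicates, and neither Arp5 list had a peak there. Among peaks at or above the median score of their list, this Hap2 call at *ino80* was lost, since the peak of replicate 1 outscored 38.7% of its list. The stretch upstream of the gene that both Hap2 peaks cover is shown for that reason (I:5403031-5403217, plus strand, ASM294v3).
*ino80* promoter: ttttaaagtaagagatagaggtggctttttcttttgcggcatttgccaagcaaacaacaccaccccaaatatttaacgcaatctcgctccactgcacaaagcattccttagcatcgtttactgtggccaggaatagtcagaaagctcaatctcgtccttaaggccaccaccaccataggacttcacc
These 187 bp hold no match to TATAAA on either strand, and 35.2% of 5112 coding genes hold one over the same distance. An antisense noncoding RNA gene, SPNCRNA.4440, spans both peaks.

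Over the body of *ino80* the lists did not share positions within a protein. Arp5-3HA replicate 1 had 3 peaks of 300, 150 and 150 bp, with summits 1368, 2748 and 4678 bp into the gene, at ranks 3772, 1884 and 1156. In Arp5-3HA replicate 2 a single peak of 180 bp had its summit 2138 bp into the gene, at rank 1227, and it overlapped none of them. The count of *ino80* among Arp5 bodies thus comes from different places in the 2 replicates. A Hap2 peak of 150 bp in replicate 2 began at the same base as that Arp5 peak, 5405311. At the 3′ end, Hap2-GFP replicate 2 and Arp5-3HA replicate 2 had peaks of 200 and 210 bp past the gene end, inside *set2*, the convergent gene for an H3K36 methyltransferase. The covered share of *ino80* was 1.04% and 3.38% for Hap2 and 11.7% and 3.52% for Arp5.

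*iec1* and *nht1* encode smaller subunits, of which Nht1 has an HMG box. At *iec1* (chromosome I, 4653049 to 4654387), neither replicate 1 list had a peak. Both replicate 2 lists had one that began at 4653391, of 230 bp at rank 2816 for Hap2 and of 180 bp at rank 2867 for Arp5. The next gene, *ade2*, was covered in all 4 lists, by 36.7% to 55.6% of its length. At *nht1* (chromosome I, 1219667 to 1220852), only Arp5 peaks were found, of 160 bp at rank 3772 in replicate 1 (1219801 to 1219960) and of 230 bp at rank 3894 in replicate 2 (1219691 to 1219920). They overlapped each other and lay close to the stop codon, over the opposite noncoding RNA gene SPNCRNA.554. For *nht1* the annotation ends the gene at the stop codon, so its 3′ end window is centred there.

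**Figure D5:**
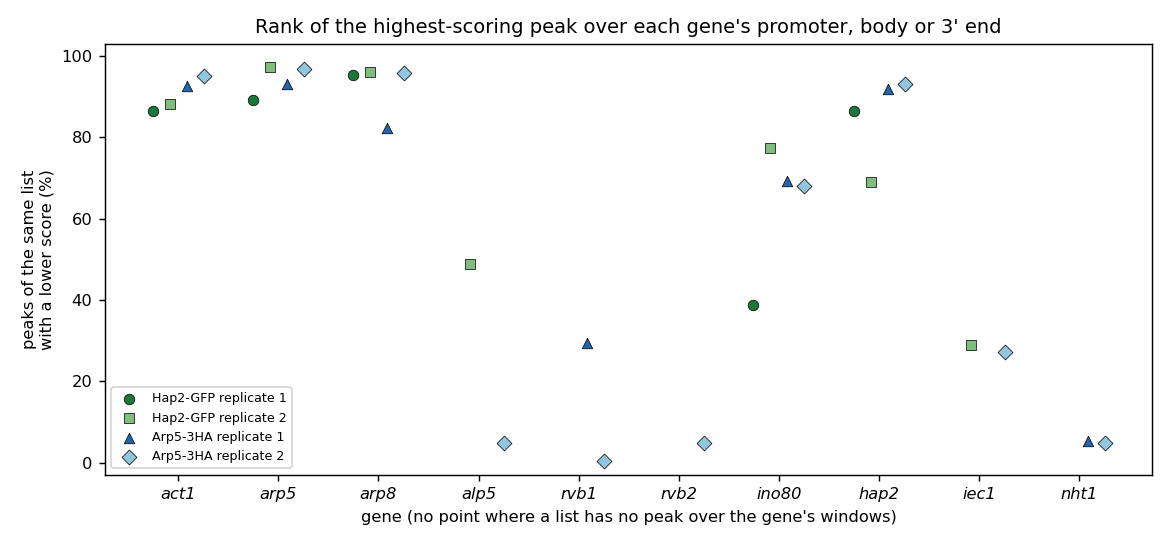
Rank of the highest-scoring peak over the windows of each member, as the percentage of peaks in the same list with a lower score (100 at the top). Each point is 1 list, and a list without a peak has no point. All points of *act1*, *arp5* and *arp8* lie above 80, those of *hap2* between 69 and 93.1, and those of *alp5*, *rvb1*, *rvb2*, *iec1* and *nht1* below 50.

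The ranks of the highest peak over the windows are set side by side here. In the order of lists given above, 86.4%, 88.2%, 92.7% and 95% of peaks in the list had a lower score than that of *act1*. For *arp5* these values were 89.1%, 97.3%, 93.2% and 96.8%, and for *hap2* 86.4%, 69%, 91.9% and 93.1%. For the tRNA gene peak at *arp8* they were 95.3%, 96%, 82.4% and 95.9%. *ino80* had 38.7%, 77.3%, 69.3% and 68.1%, and in Hap2-GFP replicate 2 it stood above *hap2*. The best peak of the remaining genes ranked above at most 48.8% of the peaks in its list. The ranks of *act1*, *arp5* and *arp8* overlap, so no order among them is read.

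Gene composition moved with cover. The GC content of the 10 members ran from 36.9% at *arp8* to 40.1% at *act1*, against a median of 36.8% for coding genes, and 88.3% of coding genes have a lower GC content than *act1*. Across the members, the Spearman correlation of the covered share with GC content was 0.76 and 0.56 in the Hap2 replicates and 0.51 and 0.36 in the Arp5 replicates. Across all 5113 coding genes it was 0.42, 0.44, 0.48 and 0.49. With gene length it was 0.17, 0.02, -0.10 and -0.43 across the members and 0.04, 0.06, 0.21 and 0.21 across all coding genes, of the opposite sign in both Arp5 lists. These are descriptions across genes of the same libraries, and the part of GC content in the peaks over the members was not tested. *ino80* has the second highest GC content, 39.1%, and a mean covered share of 2.21% for Hap2 and 7.63% for Arp5. By that mean it ranked 2542 and 2175 of 5113 coding genes.

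The median covered share of the members was 0 and 1.69% in the Hap2 replicates and 12.6% and 15.3% in the Arp5 replicates, and that of all coding genes was 0 in each list. The number of members with no base covered was 6, 5, 4 and 1. Among coding genes the share with no base covered was 60.1%, 55.6%, 51.5% and 50.4%.

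The 6 other genes annotated as Ino80C subunits (*ies2*, *ies4*, *ies6*, *iec3*, *iec5* and *tfg3*) had few peaks. For Hap2, *iec3* alone had a peak in both replicates, over the body, with lengths of 250 and 190 bp and ranks of 3432 and 1440. For Arp5, 0 of the 6 had a peak in both replicates over any window. Among all coding genes the shares with a peak over any window in both replicates were 40.8% for Hap2 and 43.2% for Arp5. *ies6* had peaks in both replicate 1 lists, of 330 bp at rank 1510 for Hap2 and 240 bp at rank 1884 for Arp5, and *ies2* in both replicate 2 lists, at ranks 1991 and 2098. *ies4* had 1 peak past its end in Hap2-GFP replicate 2, and *iec5* had 1 peak in each of Hap2-GFP replicate 2 and Arp5-3HA replicate 1. *tfg3* had no peak over any window in any list.

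Swr1, the remodeler that deposits H2A.Z, shares actin, Alp5, Rvb1 and Rvb2 with Ino80C. Of 10 further genes of Swr1 and its substrate, 3 had a Hap2 promoter peak in both replicates (*vps71*, *bdf1* and *pht1*), against 18.6% of coding genes. For Arp5 it was 2 (*vps71* and *pht1*), against 5.73%. Over the body and the 3′ end, *bdf1*, which encodes a bromodomain protein, was the only one for either protein. Its 3′ end peaks in both Hap2 lists and in Arp5-3HA replicate 2 had their summits past the window, inside the neighbouring gene *utp502*. Arp5-3HA replicate 1 had such a peak too, and a further one with its summit in the window. The body shares of coding genes were 26.8% for Hap2 and 36.6% for Arp5, and the 3′ end shares 16.7% and 16.1%. The promoter peaks of *vps71* also covered the ribosomal protein gene *rpl8*, and those of *pht1*, the H2A.Z gene, covered a threonine tRNA gene, SPBTRNATHR.06. *swr1*, *swc5*, *yaf9* and *arp6* had no peak over their windows in any list.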

How the data were processed

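ChIP-seq of Hap2-GFP and Arp5-3HA was analysed from the deposited peak lists, 1 a sample, called without pooling replicates. Per the labels, MACS2 2.1.2, BWA 0.7.17 and Trimmomatic 0.36 stand in the submitters' processing notes, with deepTools of unstated version. Not given in the sources used here are the genome build, the peak threshold, the handling of reads with several matches and which input served which list. The score in the deposited lists is a whole number that the authors assigned on an unstated scale, so it was used only as a rank. The lists hold no read counts, and depth and precision are unknown. The labels gave each sample its protein and its replicate number.

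Genes came from ASM294v3, whose chromosome III length, 2452883, equals the end of its last peak in every list. Its build may still differ from the authors'. Peaks on other sequences (6, 8, 1 and 0 a list) were left out. Overlaps were counted in Python 3.11.15 (numpy 2.4.6, scipy 1.17.1), with plots by matplotlib 3.10.9. In a check on simulated data, 200 of 200 peaks planted at window centres were found by the overlap count. The check used the same window limits as the count, so it does not test those limits. Named genes are the 10 members, the other subunits of Ino80C, up to 4 genes with the highest-ranking peaks of the Swr1 and actin cytoskeleton lists, the 5 genes most like *act1* and neighbours the peaks reach. Genes without any peak, flanking genes, genes of the actin cytoskeleton beyond *cdc12*, *wsp1*, *myo1* and *fim1*, and the 4 genes with edges like those of *arp5* were added to that rule with their values in view. The members and lists were chosen with earlier results of these data known. Alternatives were either replicate, merged replicates, each replicate left out, a minimum overlap of 50 bp, summits in place of peaks, peaks at or above the median score, coding sequence limits, and wider or narrower windows. The counts over any window, the setting without tRNA gene peaks and the alternatives for covered shares were added after seeing the data.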

Additional observations from a re-analysis of the deposited data

How the results depend on the processing

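Of 78 alternative counts of members, 66 stayed within 1.5 times the value reported. Not all of these are separate checks. Every member with a peak in replicate 1 also had one in replicate 2. The counts without replicate 2 therefore repeated those reported, and those without replicate 1 equalled those for either replicate. Leaving out tRNA gene peaks changed no promoter or body count. Over any window, *act1* and *arp5* stayed in both proteins' counts under all 18 alternatives run. With a peak in either replicate, the Hap2 promoter and body counts were 5 and 5 and the Arp5 body count 8. Leaving out each replicate in turn gave 3 to 5 members for the Hap2 promoter, 2 to 5 for the Hap2 body and 5 to 8 for the Arp5 body, with the higher value without replicate 1 in each case (*alp5* and *hap2*, then *ino80*, *hap2* and *iec1*, then *alp5*, *rvb2* and *iec1* added). With summits in place of peaks, the Hap2 body count was 1 and the Arp5 promoter count 1 (*act1* lost from each). The Arp5 3′ end count was 2 (*act1*, *arp5* and *arp8* lost). The other counts that changed with summits were the Hap2 promoter at 2, without *act1*, the Hap2 3′ end at 3, without *arp8*, and the Arp5 body at 4, without *nht1*. A minimum overlap of 50 bp gave 1 for the Arp5 promoter, without *act1*. Among peaks at or above the median score, the Arp5 promoter count was 1, without *arp5*, and the Arp5 body count 3, without *rvb1* and *nht1*. Of 40 covered shares recomputed with coding sequence limits or with peaks at or above the median score, 33 moved by no more than the standard deviation of the replicates. These 33 include shares of 0 in both replicates, which neither setting could move. They were those of *arp8*, *alp5*, *rvb1*, *rvb2* and *nht1* for Hap2 and of *arp8* for Arp5. The share of *hap2* under Hap2 peaks was 15.1% and 78.7% with either replicate left out. No paired analysis was possible because no result comes from a test. The lists hold no depth, so a window without a peak is not shown to lack the protein.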

Other observations

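Of 20 genes of the actin cytoskeleton, 4 had a Hap2 promoter peak in both replicates, *adf1* (cofilin), *cdc3* (profilin), *cdc8* (tropomyosin) and *acp2* (a capping protein subunit), and 1 had an Arp5 one, *cdc3*. Over the body the counts were 6 for Hap2 and 10 for Arp5, and over the 3′ end 3 for each protein. Among all coding genes the promoter shares were 18.6% for Hap2 and 5.73% for Arp5. The body shares were 26.8% and 36.6%, and the 3′ end shares 16.7% and 16.1%. None of the 20 genes had as large a share covered as *act1*. The highest-ranking peaks over these genes were at *cdc12*, a formin, with rank 187 in Arp5-3HA replicate 1 and no peak in replicate 2, at *wsp1*, the fission yeast WASp, with rank 193 in Hap2-GFP replicate 2, at *myo1*, a type I myosin, with rank 310 in Arp5-3HA replicate 1, and at *fim1*, a fimbrin, with rank 319 in Arp5-3HA replicate 2. The highest shares of a gene covered in any of them were 58.8% at *wsp1* in Hap2-GFP replicate 2 and 48.6% at *arc1*, a subunit of the Arp2/3 complex, in Arp5-3HA replicate 2. At *myo1*, 35.6% and 24.4% was covered in the Hap2 replicates and 40.6% and 41.4% in the Arp5 replicates. *arp2*, the actin-related protein of the Arp2/3 complex, had 33.8% and 22.4% covered for Hap2 and 44.4% and 40.7% for Arp5. *arp3*, its partner, had no Hap2 peak over its windows and 25.2% and 9.12% covered for Arp5, in a stretch it shares with a gene on the opposite strand, SPAC630.04C. *acp1*, *arc4* and *arc5* had no peak over their windows in any list.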
